A study of Mus musculus with 66 samples.

Results

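The dystrophin-glycoprotein complex was followed through 9 genes, Dmd, Utrn, Dag1, Sgca, Sgcb, Sgcd, Sgce, Dtna and Sntb1, which were chosen by name and were all found among the 22489 genes of the mRNA-Seq table. The cells were C2C12, a mouse myoblast line that divides in rich serum and fuses into myotubes when serum is withdrawn. WT cells carried no transgene, and each of the 9 other lines carried 1 H3 variant (H3.3, H3.1, H3.2, H3mm16, H3mm13, H3mm12, H3mm11, H3mm7 or H3t) with GFP at its N-terminus, driven by a doxycycline-inducible promoter on a transposon vector, and the study's methods speak of stable clones. Growth cells were kept in 20% fetal bovine serum and collected before confluence, and differentiated cells were confluent cells moved to 2% horse serum for 48 h. Each line gave 1 library in each state, 20 in all, so p-values measure the spread between lines and not between cultures of a line. The main tests took the libraries as independent and did not pair both libraries of a line, and an alternative did pair them. By their amino acid sequence, H3.1, H3.2 and H3t were taken as H3.1/H3.2-type and the other 6 variants as H3.3-type.

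The complex ties the actin cytoskeleton of a muscle fibre to the basement membrane. Dystrophin, and its close relative utrophin, bind actin at one end and the membrane protein dystroglycan at the other. Dystroglycan carries the sugar chains that hold laminin outside the cell, the sarcoglycans sit beside it in the membrane, and the dystrobrevins and syntrophins are bound to dystrophin on the inner side as docking proteins. Loss of dystrophin causes Duchenne muscular dystrophy, and loss of some of the sarcoglycans, but not of each, causes forms of limb-girdle dystrophy. Dystrophin appears late when myoblasts become fibres, and utrophin is the form of earlier and of non-muscle cells.

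Levels are in FPKM, fragments scaled to transcript length and to the mapped fragments of the library, and differences are on the log2(FPKM + 1) scale, which understates the change of a gene near 0. The 10954 genes with a mean of at least 1 FPKM were tested with limma, and a call needed an adjusted p (Benjamini-Hochberg) below 0.05. The 6 differentiation markers (Myog, Ckm, Actc1, Tnnc2, Myh3 and Mymk) summed to 1.78 to 49.3 FPKM in growth and 1498 to 11045 FPKM in differentiated cells. The 5 cycling markers (Mki67, Ccnb1, Birc5, Top2a and Tk1) summed to 398 to 725 FPKM and 4.92 to 97.1 FPKM in the same order, and both sets separated the 10 libraries of one state from the 10 of the other. The sum of FPKM over all genes was lowest in the WT libraries, at 409319 in growth and 465247 in differentiated cells, against 583613 to 894105 in the GFP-H3 lines. Exact zeros among otherwise high values occurred 119 times in 61 of the genes tested, 27 and 25 times in the WT libraries and 1 to 7 times in each of the others, so a 0 is written below as a value listed at 0.

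Dystrophin, the gene Dmd on the plus strand of chrX:80194209-82451480 (mm9), was the lowest member in both states. Growth libraries held 0 FPKM in WT, 0 in H3.1, 0 in H3.2, 0.0151 in H3t, 0.0257 in H3.3, 0.008299 in H3mm7, 0.0147 in H3mm11, 0 in H3mm12, 0.00452 in H3mm13 and 0 in H3mm16. Differentiated libraries held 0.499 FPKM in WT, 0.0433 in H3.1, 0.1405 in H3.2, 0.0778 in H3t, 0.163 in H3.3, 0.165 in H3mm7, 0.188 in H3mm11, 0.651 in H3mm12, 0.508 in H3mm13 and 0.3202 in H3mm16. Every differentiated library was thus above every growth library, while none reached 1 FPKM, and the lines divided into WT, H3mm12, H3mm13 and H3mm16 at 0.3202 FPKM or more and the other 6 at 0.188 FPKM or less. The mean over the 20 libraries was 0.141 FPKM, which kept Dmd out of the test. Without the filter on low values the difference was 0.32 on the log2 scale (SE 0.07, adjusted p = 6.9e-04 in limma), and 10 of 10 lines were higher after differentiation. The annotation lists 16 transcripts of Dmd, some of which start inside the gene, and a gene-level FPKM does not tell them apart. In RNA from whole cultures, a higher level per cell and a larger share of cells that express a gene cannot be told apart either, here and for all members.

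Dmd, Sgca, Sgcb, Sgcd, Dtna and Sntb1 rose in all lines. Of these, the sequence before the gene start is shown for Dmd, as the founding member of the complex, and for Sgca and Sgcb. Each is the 250 bases upstream of a RefSeq transcript start in GRCm38.p6, a later build than the mm9 of the loci given here, and reads 5′ to 3′ on the strand of the gene. The RefSeq table used here held 8 entries for 6 of the 9 members, of which 2 each belonged to Dmd and Dag1, and no entry was at hand for Sgce, Dtna and Sntb1. Capitals mark E-boxes (CANNTG, which takes in CAGCTG), the motif bound by MyoD and myogenin, and also CArG and MEF2 boxes, the motifs of serum response factor and of MEF2, all searched on both strands.
Dmd, plus strand, chrX:82948620-82948869: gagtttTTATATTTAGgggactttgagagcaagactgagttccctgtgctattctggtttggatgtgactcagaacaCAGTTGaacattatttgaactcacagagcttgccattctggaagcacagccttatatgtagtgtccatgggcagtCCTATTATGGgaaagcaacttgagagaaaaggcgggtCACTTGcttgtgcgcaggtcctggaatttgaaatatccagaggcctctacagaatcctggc
Sgca, minus strand, chr11:94976328-94976577: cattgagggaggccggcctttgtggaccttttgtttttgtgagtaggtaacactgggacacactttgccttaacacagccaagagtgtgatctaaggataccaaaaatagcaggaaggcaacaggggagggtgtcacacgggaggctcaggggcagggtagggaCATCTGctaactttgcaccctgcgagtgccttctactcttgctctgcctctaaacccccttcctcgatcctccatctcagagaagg
Sgcb, minus strand, chr5:73647738-73647987: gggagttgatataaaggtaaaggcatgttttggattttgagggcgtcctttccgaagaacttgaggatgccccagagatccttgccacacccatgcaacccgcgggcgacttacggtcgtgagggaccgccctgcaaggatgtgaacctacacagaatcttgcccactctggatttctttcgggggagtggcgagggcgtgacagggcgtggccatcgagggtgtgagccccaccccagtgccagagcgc
The Dmd window, the more upstream of the 2 entries, held 1 MEF2 box 244 to 235 bases before the start, 1 CArG box 98 to 89 bases before it, and 2 E-boxes at 173 to 168 and 61 to 56 bases. The MEF2 and CArG boxes did not overlap each other or an E-box. The Sgca window held 1 E-box 86 to 81 bases before the start, and the Sgcb window held none of the motifs. Of all 32851 RefSeq windows of this length, 66.2% held an E-box, 13.001% a CAGCTG, 1.47% a CArG box and 2.92% a MEF2 box. A match in these windows describes the letters and is no measure of binding.

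Utrophin (Utrn, minus strand of chr10:12101986-12589163) rose in differentiated cells and was at 47.7 times the FPKM of Dmd or more in each of the 15 libraries where Dmd was above 0. In growth, Utrn was at 11.95 FPKM in WT, 15.7 in H3.1, 17.1 in H3.2, 16.5 in H3t, 17.2 in H3.3, 17.5 in H3mm7, 16.9 in H3mm11, 17.5 in H3mm12, 16.3 in H3mm13 and 18.1 in H3mm16. In differentiated cells it was at 23.8 FPKM in WT, 28.1 in H3.1, 34.7 in H3.2, 28.8 in H3t, 23.97 in H3.3, 15.4 in H3mm7, 30.7 in H3mm11, 41.9 in H3mm12, 32.1 in H3mm13 and 39.1 in H3mm16. The growth values were close together apart from WT, which was the lowest, and H3mm7 was the only line in which the differentiated value was below its own growth value. The difference was 0.78 (SE 0.13, adjusted p = 3.4e-05), with 9 of 10 lines higher. Dmd went from a median of 0.0138% of the summed FPKM of the pair in growth to 0.745% in differentiated cells, and its highest share was 2.05% in WT.

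**Figure D1:**
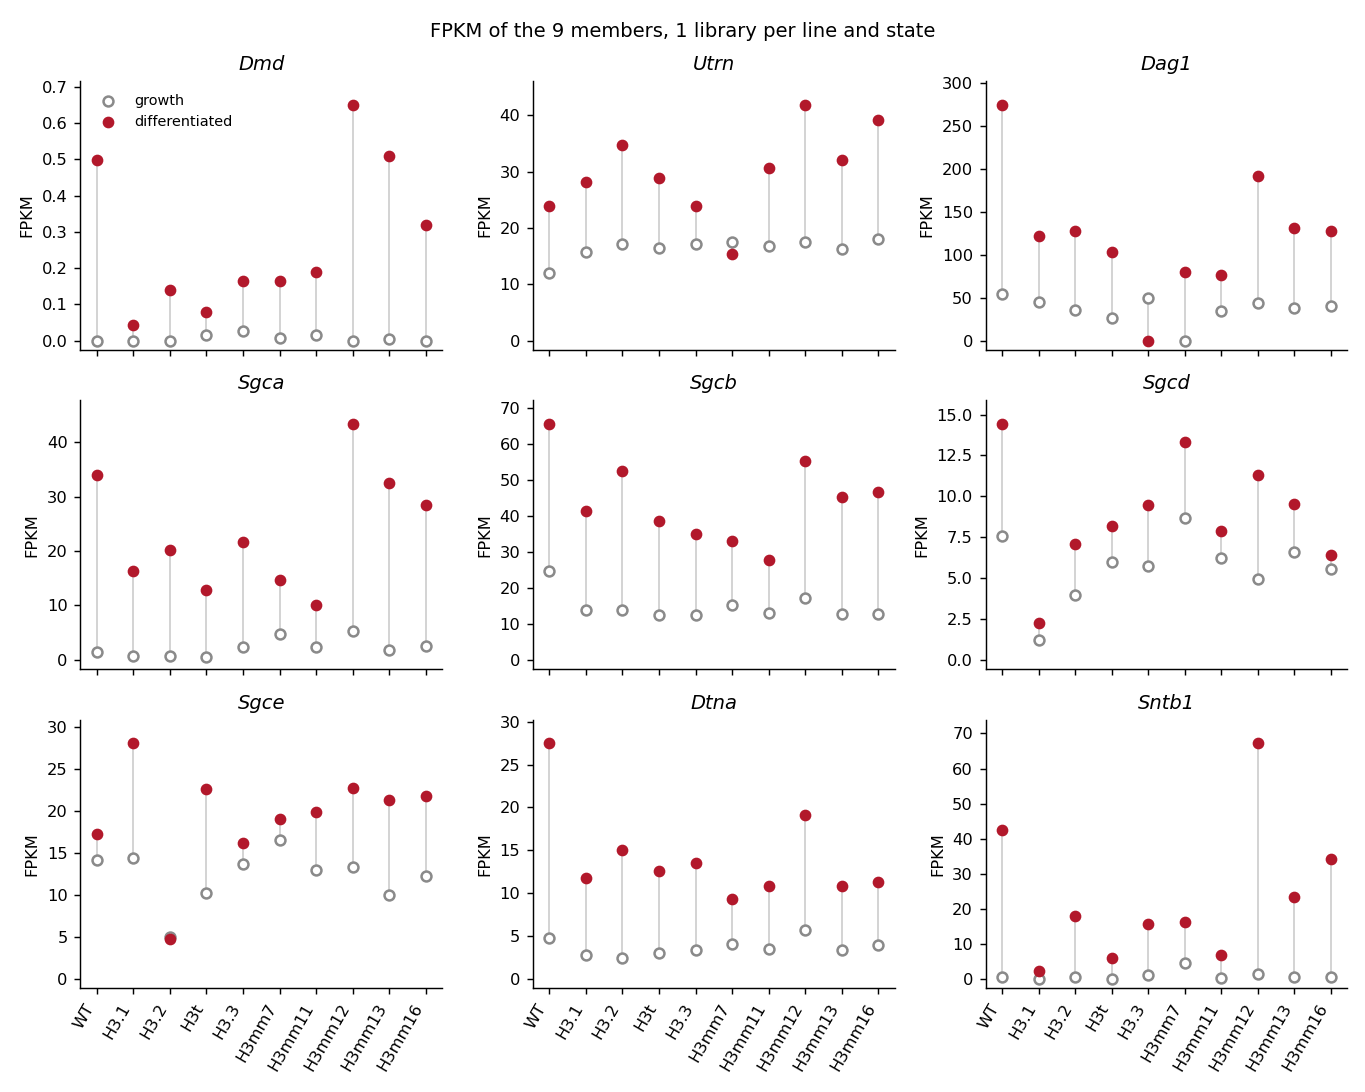
FPKM (linear axis, a scale of its own in each panel) of the 9 members in WT and 9 GFP-H3 lines, with open circles for growth and filled circles for differentiated libraries joined by a line. Differentiated values lie above growth values in nearly every line, and the exceptions are Dag1 in H3.3 (listed at 0), Utrn in H3mm7 and Sgce in H3.2.

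Dystroglycan is made as 1 precursor from Dag1 (minus strand of chr9:108108286-108166255) and cut into the laminin-binding and the membrane-spanning part. It had the highest median of the 9 members in both states. Growth libraries held 54.4 FPKM in WT, 45.2 in H3.1, 36.1 in H3.2, 26.01 in H3t, 49.1 in H3.3, 0 in H3mm7, 34.8 in H3mm11, 43.5 in H3mm12, 37.98 in H3mm13 and 40.03 in H3mm16. Differentiated libraries held 275 FPKM in WT, 122 in H3.1, 127 in H3.2, 103 in H3t, 0 in H3.3, 79.7 in H3mm7, 76.4 in H3mm11, 192 in H3mm12, 131 in H3mm13 and 128 in H3mm16. The 0 of H3mm7 in growth and that of H3.3 in differentiated cells stood among values of 26.01 FPKM or more and 76.4 FPKM or more, and the same lines had 79.7 and 49.1 FPKM in the other state. With the zeros as deposited, the difference was 1.48 (SE 0.85, adjusted p = 0.141) and Dag1 was not called. With the doubtful zeros treated as missing it was 1.64 (SE 0.21, adjusted p = 1.1e-06), and without the H3.3 line it was 2.27 (adjusted p = 0.0029). Leaving out H3mm7 instead gave 0.94 (adjusted p = 0.306), so the call of Dag1 rests on how the 2 zeros are read. In the 8 lines with both values above 0, Dag1 was higher after differentiation in 8, by 1.11 in H3mm11 to 2.32 in WT.

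The sarcoglycans are single-pass membrane proteins, and Sgca, the α form of striated muscle, had the widest change among them. Sgca (minus strand of chr11:94824105-94837641) was in growth at 1.37 FPKM in WT, 0.617 in H3.1, 0.613 in H3.2, 0.464 in H3t, 2.31 in H3.3, 4.83 in H3mm7, 2.32 in H3mm11, 5.37 in H3mm12, 1.84 in H3mm13 and 2.45 in H3mm16. After differentiation it was at 34.04 FPKM in WT, 16.4 in H3.1, 20.3 in H3.2, 12.8 in H3t, 21.7 in H3.3, 14.7 in H3mm7, 10.1 in H3mm11, 43.4 in H3mm12, 32.6 in H3mm13 and 28.4 in H3mm16. The 2 states did not overlap, and the 3 lowest growth values were those of H3.1, H3.2 and H3t. The difference was 2.97 (SE 0.29, adjusted p = 2.0e-08), the lines H3mm7 (1.43) and H3mm11 (1.74) having the smallest changes.

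Sgcb encodes β-sarcoglycan, which is made in muscle and in many other tissues and lies on the minus strand of chr5:74023988-74038983. Growth libraries held 24.6 FPKM in WT, 13.8 in H3.1, 13.7 in H3.2, 12.4 in H3t, 12.5 in H3.3, 15.3 in H3mm7, 12.9 in H3mm11, 17.02 in H3mm12, 12.7 in H3mm13 and 12.8 in H3mm16. Differentiated libraries held 65.5 FPKM in WT, 41.3 in H3.1, 52.4 in H3.2, 38.6 in H3t, 34.95 in H3.3, 33.05 in H3mm7, 27.7 in H3mm11, 55.1 in H3mm12, 45.1 in H3mm13 and 46.6 in H3mm16. WT was highest in both states, and the lowest differentiated value, in H3mm11, was still above the WT growth value. The difference of 1.50 (SE 0.14, adjusted p = 1.2e-08) was the most even of the members that rose by at least 1, with every line between 1.05 and 1.86.

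Sgcd encodes δ-sarcoglycan and spans about 1 Mb on the minus strand of chr11:46709755-47802471. In growth it was at 7.56 FPKM in WT, 1.22 in H3.1, 3.94 in H3.2, 5.98 in H3t, 5.75 in H3.3, 8.69 in H3mm7, 6.23 in H3mm11, 4.94 in H3mm12, 6.57 in H3mm13 and 5.52 in H3mm16. In differentiated cells it was at 14.4 FPKM in WT, 2.24 in H3.1, 7.102 in H3.2, 8.19 in H3t, 9.45 in H3.3, 13.3 in H3mm7, 7.904 in H3mm11, 11.3 in H3mm12, 9.55 in H3mm13 and 6.43 in H3mm16. H3.1 was far below the other lines in both states, and the states overlapped, although each of the 10 lines was higher after differentiation. The difference of 0.57 (SE 0.26) was not called (adjusted p = 0.061). It was called once each line was compared with itself, with the line as a block (adjusted p = 5.3e-05), and also when H3.1 was left out (0.57, adjusted p = 0.0026).

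Sgce encodes ε-sarcoglycan, the relative of α-sarcoglycan found outside striated muscle as well, from a paternally expressed imprinted gene on the minus strand of chr6:4624350-4697204. Growth libraries held 14.2 FPKM in WT, 14.4 in H3.1, 4.96 in H3.2, 10.2 in H3t, 13.7 in H3.3, 16.5 in H3mm7, 12.9 in H3mm11, 13.3 in H3mm12, 9.999 in H3mm13 and 12.3 in H3mm16. Differentiated libraries held 17.2 FPKM in WT, 28.03 in H3.1, 4.74 in H3.2, 22.6 in H3t, 16.2 in H3.3, 18.98 in H3mm7, 19.9 in H3mm11, 22.7 in H3mm12, 21.3 in H3mm13 and 21.8 in H3mm16. The H3.2 line was lowest in both states and did not rise, at 4.96 and 4.74 FPKM, where the next lowest lines had 9.999 and 16.2 FPKM. Sgce rose by 0.57 (SE 0.23, adjusted p = 0.038), with 9 of 10 lines higher, but the call was lost when any of H3.1, H3t, H3mm11, H3mm12, H3mm13 or H3mm16 was left out (adjusted p = 0.064 to 0.09). Sgca made up 4.11% to 28.8% of their summed FPKM in growth and 33.7% to 81.1% in differentiated cells, with the highest share in H3.2. Sgca was the higher of both in 6 of 10 differentiated lines and in 0 of 10 in growth, and Sgce stayed higher in H3.1, H3t, H3mm7 and H3mm11.

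**Figure D2:**
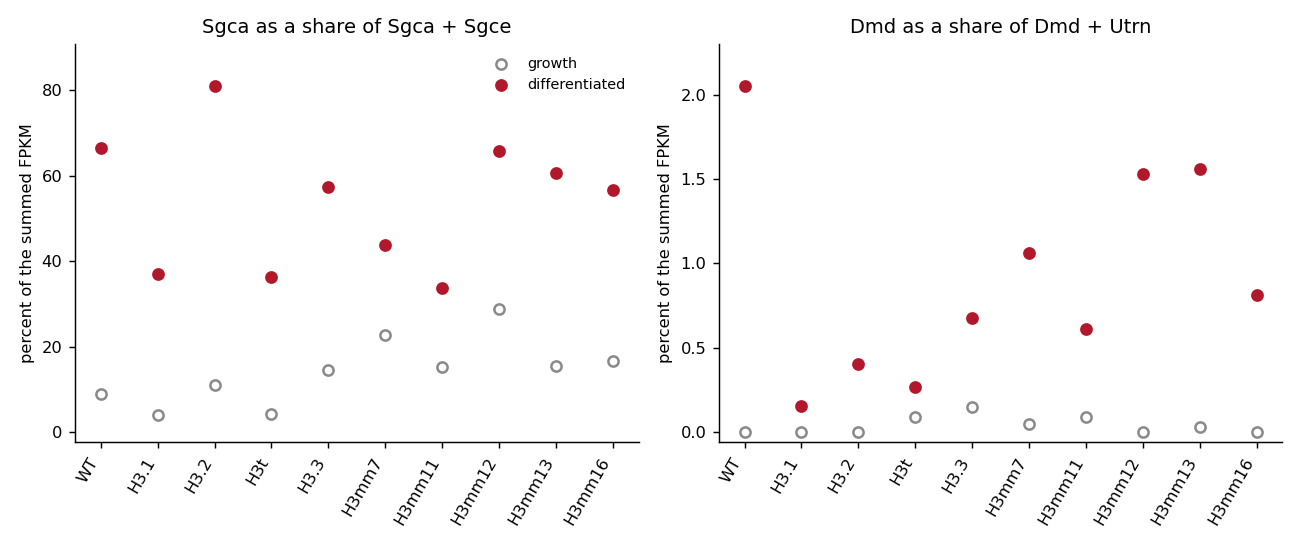
Sgca as a percent of the summed FPKM of Sgca and Sgce (left) and Dmd as a percent of the summed FPKM of Dmd and Utrn (right), on separate linear axes, in each line in growth (open) and differentiated cells (filled). The share of Sgca in every differentiated library is above 28.8%, its highest value in growth, and that of Dmd stays at or below 2.05% throughout.

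The cytoplasmic adaptors rose in every line. Dtna, on chromosome 18, encodes α-dystrobrevin, a relative of dystrophin that binds it directly. In growth it was at 4.79 FPKM in WT, 2.76 in H3.1, 2.48 in H3.2, 3.06 in H3t, 3.38 in H3.3, 4.11 in H3mm7, 3.502 in H3mm11, 5.76 in H3mm12, 3.34 in H3mm13 and 3.95 in H3mm16. In differentiated cells it was at 27.5 FPKM in WT, 11.8 in H3.1, 14.999 in H3.2, 12.6 in H3t, 13.5 in H3.3, 9.29 in H3mm7, 10.9 in H3mm11, 19.1 in H3mm12, 10.8 in H3mm13 and 11.4 in H3mm16. The states did not overlap, WT and H3mm12 were the 2 highest lines after differentiation, and the difference was 1.65 (SE 0.16, adjusted p = 1.3e-08).

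Sntb1 (minus strand of chr15:55470398-55738504) encodes β1-syntrophin, an adaptor that docks signalling proteins and channels. Growth libraries held 0.576 FPKM in WT, 0.02905 in H3.1, 0.646 in H3.2, 0.0551 in H3t, 1.15 in H3.3, 4.57 in H3mm7, 0.394 in H3mm11, 1.44 in H3mm12, 0.603 in H3mm13 and 0.699 in H3mm16. Differentiated libraries held 42.4 FPKM in WT, 2.41 in H3.1, 17.99 in H3.2, 5.902 in H3t, 15.7 in H3.3, 16.2 in H3mm7, 6.99 in H3mm11, 67.3 in H3mm12, 23.4 in H3mm13 and 34.2 in H3mm16. It had the largest difference of the 8 tested members, 3.296 (SE 0.44, adjusted p = 1.6e-06) and, apart from Dag1 with its zeros, the largest standard error. The differentiated value of H3.1 was below the growth value of H3mm7, so the states overlapped, and H3mm12 stood at 27.96 times the level of H3.1 among differentiated libraries.

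Of the 8 members tested, 6 were called higher in differentiated cells (Utrn, Sgca, Sgcb, Sgce, Dtna and Sntb1) and none lower, where 30.5% of all genes tested were called higher and 28.1% lower. The 4 members Sgca, Sgcb, Dtna and Sntb1 were also past a difference of 1, against 8.87% of all genes. With the line as a block, 7 of 8 were called higher, against 37.0% of all genes. In Sgca, Sgcb and Dtna all differentiated libraries lay above all growth libraries, as in 8.85% of genes. The median difference was 1.49 over the 8 members and 0.04 over all genes tested. These shares are set side by side as a description, since 9 members that were chosen by name are too few to stand for a class of genes.

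**Figure D3:**
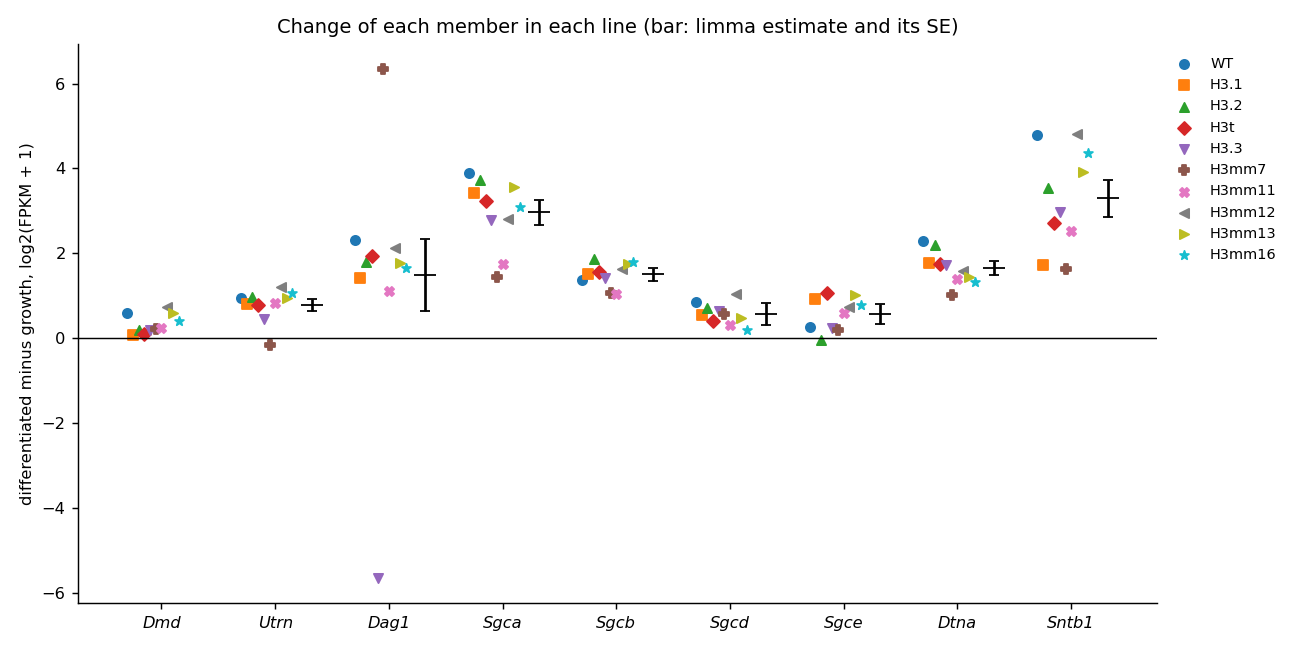
Difference between the differentiated and the growth library of each line on the log2(FPKM + 1) scale for the 9 members, with a marker per line and, for the 8 members tested, the limma estimate with its standard error as a black bar. Sgca and Sntb1 show the largest estimates (2.97 and 3.296), and the 2 outlying Dag1 points are lines with a value listed at 0.

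FPKM is scaled to transcript length, so levels of different members can be set side by side, with a limit. The libraries were reverse-transcribed with an oligo dT primer, and how evenly reads cover long transcripts was not tested. Merged exons make up 23808 bases in Dmd and 13231 in Utrn, against 1735 in Sgca and 2869 in Sntb1. The order below, and the ratio and shares of Dmd and Utrn above, are read with this limit. By their medians over the lines, the order in growth was Dag1 (39.01 FPKM), Utrn (16.99), Sgcb (13.3), Sgce (13.1), Sgcd (5.87), Dtna (3.44), Sgca (2.08), Sntb1 (0.624) and Dmd (0.00226). In differentiated cells it was Dag1 (125 FPKM), Sgcb (43.2), Utrn (29.8), Sgca (20.99), Sgce (20.6), Sntb1 (17.1), Dtna (12.2), Sgcd (8.82) and Dmd (0.177). With the zeros as deposited, Dmd alone was separated from its neighbour in the order by ranges that did not overlap, in both states. Without its 2 zeros Dag1 was separated as well, at 26.01 FPKM or more in growth, where Utrn reached 18.1 FPKM, and at 76.4 FPKM or more in differentiated cells, where Sgcb reached 65.5 FPKM. Sgcb and Sgce in growth kept their order in 6 of 10 lines, and Sgca and Sgce in 6 and Sgce and Sntb1 in 5 of 10 lines after differentiation. The order of these neighbours thus varied between lines, and levels of members were not tested against each other.

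In differentiated cells, WT and H3mm12 were the lines that most often stood highest. WT also differed from the other lines in its FPKM sum and its zeros, as given above, and the part of this in its places was not tested. H3mm12 was among the 3 highest lines for 9 of the 9 members and WT for 7, and of the 9 members the highest line was WT in 4 (Dag1, Sgcb, Sgcd and Dtna), H3mm12 in 4 (Dmd, Utrn, Sgca and Sntb1) and H3.1 in the case of Sgce. H3mm7 and H3mm11 were among the 3 lowest lines for 5 members each. The differentiation markers varied between the same libraries, their sum being 11045 FPKM in WT, 10381 in H3mm12, 7581 in H3mm13 and 6638 in H3mm16, and 1498 (H3mm11) to 4784 (H3.2) in the other 6 lines. Across the 10 differentiated libraries, Pearson's r with the mean log2(FPKM + 1) of the 6 markers was 0.94 for Sgca, 0.89 for Sgcb, 0.87 for Sntb1, 0.87 for Dmd and 0.67 for Dtna. It was 0.46 for Utrn, 0.42 for Dag1 with its 0, 0.40 for Sgcd and -0.14 for Sgce. Across the 10 growth libraries, where the markers were low, the same r was 0.89 for Sgca, 0.83 for Sntb1, 0.73 for Sgcd, 0.60 for Dtna, 0.45 for Sgce, 0.30 for Dmd, 0.23 for Utrn, 0.13 for Sgcb and -0.55 for Dag1 with its 0. In these pairs both values come from 1 library, and they are descriptions of 10 libraries. Among members, r in the 10 differentiated libraries was highest between Dmd and Sntb1 (0.86), Dmd and Sgca (0.85) and Sgca and Sntb1 (0.84) and lowest between Sgcd and Utrn (-0.30).

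The GFP-H3 lines were then compared by the class of the variant they carried, 6 lines with an H3.3-type and 3 with an H3.1/H3.2-type variant, without WT and with a single estimate of the spread. None of the 8 members tested was called in growth, in differentiated cells or in the interaction of class and state. Over all genes, 0.246% were called in growth, 2.46% in differentiated cells and 0% in the interaction, where 1002 of the 10954 genes and 0 of 8 members had an unadjusted p below 0.05. The interaction compares changes within lines, so it was also fitted with the line as a block, an alternative added after the data were seen, which called 0.0274% of all genes and 0 of 8 members. In that fit Dtna was the 1 member with an unadjusted p below 0.05 (1774 of all genes had one), its change being 1.01 to 1.73 in the 6 H3.3-type lines and 1.75 to 2.20 in the 3 H3.1/H3.2-type lines (-0.49, SE 0.17, adjusted p = 0.231). The changes of the classes overlapped in the other 7 members tested and were apart in 9% of all genes. Between the classes, 3 of 8 members in growth (Sgca, Sgcd and Dtna) and 2 of 8 in differentiated cells (Sgcd and Sntb1) had an unadjusted p below 0.05, as had 9.39% and 20.1% of all genes tested. The share in differentiated cells was thus near that of all genes. In growth, Sgca was higher in all 6 H3.3-type lines (1.84 to 5.37 FPKM, median 2.38) than in the 3 H3.1/H3.2-type lines (0.464 to 0.617 FPKM, median 0.613). The difference was 1.35 (SE 0.35, adjusted p = 0.152), and it passed with a pseudocount of 0.1 FPKM, at 2.20 (adjusted p = 0.022). Dtna in growth did not overlap between the classes either, at 3.34 to 5.76 FPKM against 2.48 to 3.06 FPKM (0.40, SE 0.18, adjusted p = 0.492). That made 2 of 8 tested members without overlap in growth and 0 of 8 in differentiated cells, where 9.94% and 6.07% of all genes had none. Myog, the myogenic factor that marks the onset of differentiation, moved with the class in growth as well, 2.56 higher in H3.3-type lines (adjusted p = 0.025), and its part in the Sgca values was not tested.

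In differentiated cells the member nearest to a call, of the 8 tested, was Sntb1, with 6.99 to 67.3 FPKM in H3.3-type and 2.41 to 17.99 FPKM in H3.1/H3.2-type lines. The difference was 1.57 (SE 0.58, adjusted p = 0.138), and it passed when H3.2 was left out (2.22, adjusted p = 0.043) and shrank when H3.1 was left out (0.98, adjusted p = 0.452). Dmd, below the filter, was at 0.163 to 0.651 FPKM in the 6 H3.3-type and 0.0433 to 0.1405 FPKM in the 3 H3.1/H3.2-type lines, with no overlap. Of the genes tested, which leave out Dmd, 6.07% had no overlap between the classes in differentiated cells. Fitted without the filter, the difference of Dmd was 0.28 (SE 0.09, adjusted p = 0.125) and was not called. For Sgcd the differences were 0.76 in growth and 0.74 in differentiated cells (SE 0.33, adjusted p = 0.469 and 0.217), and without the low H3.1 line they were 0.29 and 0.27 (adjusted p = 0.547 and 0.553). Sgcb and Utrn differed by less than their standard error in both states, from -0.15 to 0.06. Among the cycling markers, Mki67, Top2a and Tk1 were lower in differentiated H3.3-type lines (by -1.27, -1.73 and -1.75, adjusted p = 0.048, 0.033 and 0.029), and their part in the member values was not tested.

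**Figure D4:**
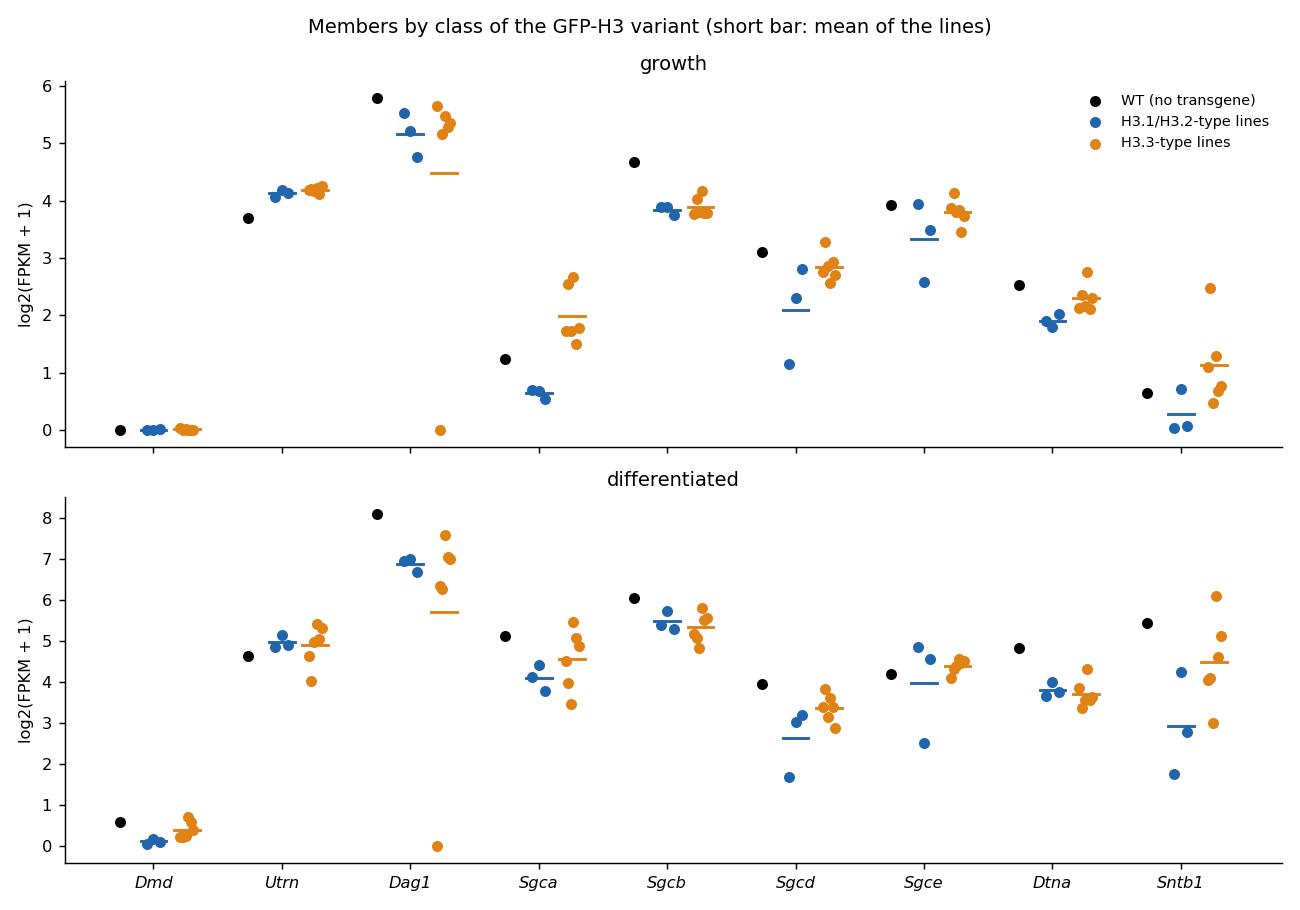
log2(FPKM + 1) of the 9 members in growth (top) and differentiated cells (bottom), each panel with an axis of its own, with a point per line for WT, the 3 H3.1/H3.2-type and the 6 H3.3-type lines and a short bar at the mean of the lines. Sgca in growth is the member whose classes stand furthest apart without overlap (1.35), and the H3.3-type mean of Dag1 is pulled down by 1 value listed at 0 in each state.

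Other proteins of the complex were mostly low or higher in differentiated cells. Of 11 such genes, 7 were tested and 5 rose, where 30.5% of all genes tested did (median 0.73). Cav3, the caveolin of muscle membranes, rose by 3.38 (SE 0.33, adjusted p = 2.0e-08), from 0 to 0.619 FPKM in growth to 2.46 to 29.7 FPKM. Drp2 and Sspn were also among those that rose. Sgcz and Sntg2 were listed at 0 in all 20 libraries and Sntg1 in 18, and Nos1, the nitric oxide synthase held by syntrophin in muscle, had medians of 0.0618 and 0.072004 FPKM.

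The enzymes that build the laminin-binding sugar chain of dystroglycan changed less. Of 18 genes, 16 were tested, 7 rose, 0 fell and 9 were not called, against 30.5% higher and 28.1% lower over all genes (median 0.25). Dpm1, a subunit of the enzyme that supplies mannose for these chains, rose by 0.88 (SE 0.12, adjusted p = 1.8e-06).

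Of 11 genes for extracellular partners, 8 were tested, 3 rose and 2 fell (median 0.44). These shares were near those of all genes tested (30.5% and 28.1%). Lama2, the laminin α2 chain of the muscle basement membrane, rose by 2.36 (SE 0.29, adjusted p = 5.8e-07) and Lamb2, the β2 chain, by 0.63 (SE 0.16, adjusted p = 0.002). The β1 chain Lamb1 changed by -0.68 (SE 0.14, adjusted p = 2.2e-04) and the γ1 chain Lamc1 by -0.25 (SE 0.10, adjusted p = 0.039). Lamb1 went from a median of 43.99 to 25.2 FPKM and Lamb2 from 22.5 to 37.3 FPKM, so that Lamb2 was the higher of both in differentiated cells by its median. Linkers at the costamere, the rib where the sarcomere is fixed to the membrane, had 11 of 12 genes tested, of which 7 rose and 0 fell, beside the same 30.5% and 28.1% (median 1.26). Dysf, the membrane repair protein dysferlin, rose by 2.48 (SE 0.23, adjusted p = 1.0e-08), and Itga7, the α chain of the other laminin receptor of muscle, by 2.34 (SE 0.17, adjusted p = 2.0e-10). Dysf was also higher in differentiated H3.3-type than in H3.1/H3.2-type lines, by 0.89 (adjusted p = 0.045), the only gene of these 4 lists called between classes in either state.

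**Figure D5:**
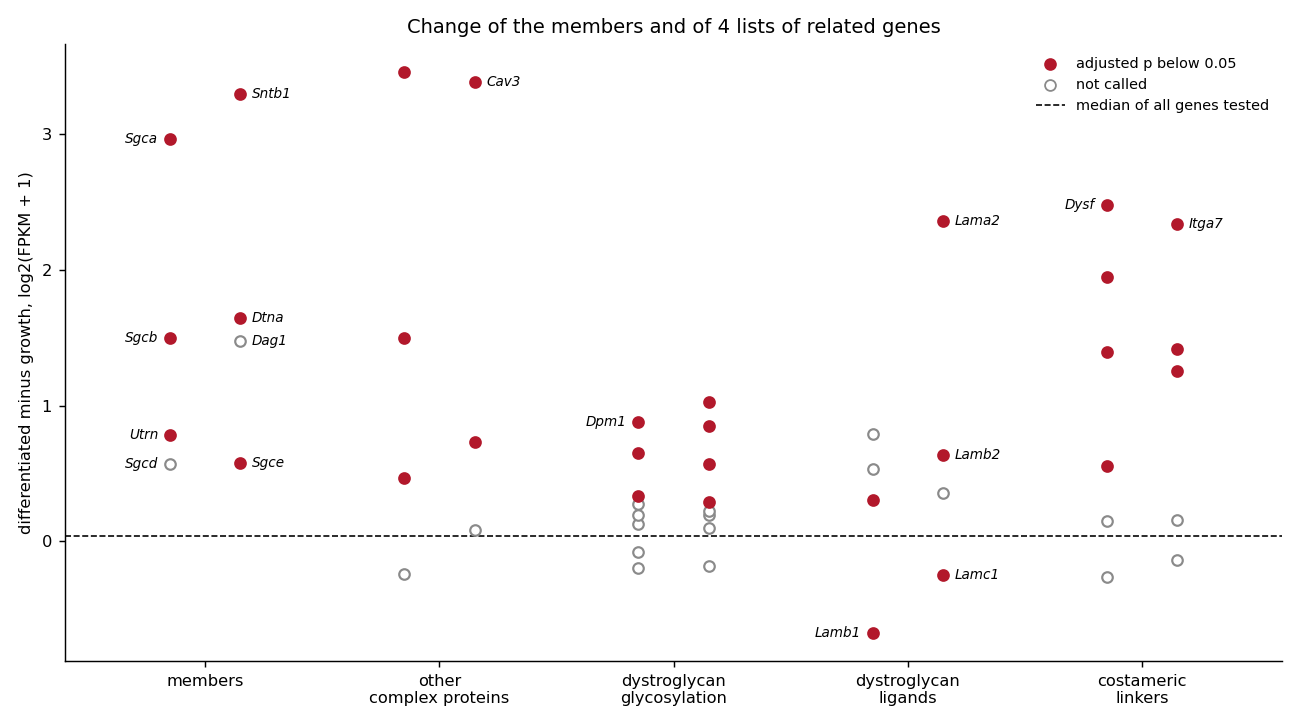
Difference between differentiated and growth cells on the log2(FPKM + 1) scale for every tested gene of the 9 members and of 4 lists of related genes, with filled circles for an adjusted p below 0.05 and a dashed line at the median of all genes tested (0.04). Cav3 (3.38) lies with Sntb1 and Sgca at the top, and Lamb1 (-0.68) and Lamc1 (-0.25) are the called genes below 0.

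Markers of other cells were mostly low. The summed level of 5 endothelial markers was 0.237 to 7.68 FPKM in growth and 0.248 to 2.06 FPKM in differentiated cells, that of 5 macrophage markers 1.07 to 4.35 and 0.377 to 4.52 FPKM, and that of 5 Schwann cell markers 0.3599 to 1.47 and 0.507 to 1.498 FPKM. The 5 adipocyte markers summed to 15.3 to 35.04 and 7.14 to 18.1 FPKM, nearly all of it Pparg, which had medians of 21.1 and 14.02 FPKM. Ptprc stayed at or below 0.0662 FPKM, Sox10 at or below 0.0139 and Adipoq at or below 0.1099, and Adgre1 was listed at 0 in all 20 libraries. Other markers were higher. Cdh5, of the endothelial list, reached 7.53 FPKM in growth (median 2.47) and changed by -1.02 after differentiation (SE 0.27, adjusted p = 0.0028). Fabp4, of the adipocyte list, reached 4.96 FPKM in growth, and Cd68, of the macrophage list, 3.90 FPKM in differentiated cells. Of the 5 myoblast markers, 4 were tested and only Cdh15, a cadherin of myoblasts and young myotubes, rose (1.49, SE 0.18, adjusted p = 4.0e-07).

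For each member, genes from the 3 tested ones with the most similar profile over the 20 libraries are given with Pearson's r of log2(FPKM + 1). The libraries fall into 2 states, so a high r over all 20 can arise from the state alone. For Sgca they were Jsrp1 (0.99) and Tnnt1 (0.98), a protein of the junctional reticulum and the troponin T of slow fibres. For Sgcb they were Snapin (0.99), Rdh14 (0.98) and Chrna1 (0.98), the last being the α1 subunit of the muscle acetylcholine receptor. Those of Dtna were Tmed4 (0.98), Synpo2l (0.97) and Iffo1 (0.97) and those of Sntb1 Prune (0.97) and Ccdc88c (0.97). For Dmd they were Art1 (0.96), Ripply1 (0.95) and Hif1an (0.95), and for Utrn Tor1aip1 (0.96), Foxn3 (0.95) and Agap1 (0.94). Sgcd had Morc4 (0.84), Crabp2 (0.83) and Lypd6 (0.81) and Sgce Cplx2 (0.80), Fuca1 (0.79) and Trim62 (0.78), lower values than those of the other tested members apart from Dag1. Within the 10 differentiated libraries alone, r was 0.95 between Sgcb and Snapin, 0.91 between Sgca and Jsrp1, 0.94 between Utrn and Tor1aip1 and 0.94 between Dmd and Art1. Within the 10 growth libraries it was 0.94, 0.97, 0.30 and 0.20 for the same pairs in that order. The profile of Dag1 was set by its zeros, the 3 nearest genes being Gpatch2 (0.73), Neat1 (0.70) and D5Ertd579e (0.70). Over the 18 libraries with a value above 0 they were Pccb (0.99), AI464131 (0.98), Fto (0.98), a choice of libraries made after the values were seen.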

How the data were processed

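FPKM values per gene were deposited by the authors, who aligned reads of the GFP-H3 cells with TopHat 2.0.8 (mm9) and ran cuffdiff of Cufflinks 2.0.1 at its defaults on libraries that, per the labels, were reverse-transcribed with an oligo dT primer. How the WT reads were mapped is not given in the paper's text. The depth is unknown, so no counting interval is given.

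Here log2(FPKM + 1) was fitted with limma 3.58.1 (trend and robust settings, R 4.3.3) over the 10954 of 22489 genes with a mean of at least 1 FPKM, checked on simulated data. Contrasts were 10 differentiated with 10 growth libraries, and, in a fit of 18 GFP-H3 libraries, both variant classes within each state and their interaction. Adjusted p is Benjamini-Hochberg over all genes tested. An exact 0 was called doubtful where the median of the other libraries of its state was at least 5 FPKM. Both libraries of a line come from the same cells, and their deviations correlated (r = 0.27 to 0.47 in the GFP-H3 lines and 0.88 in WT). The r was highest with the own line in 10 of 10, so the line as a block was an alternative. The others were the pseudocount (0.1), the filter (none, 5 FPKM), quantile normalization, plain limma settings, doubtful zeros as missing, leaving out each line, and an exact sign-flip test.

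Named genes are the 9 members, of each list the 2 called genes that changed most in either direction, markers, and the 3 genes most like each member. Nos1, Sgcz, Sntg1, Sntg2, Drp2, Sspn and Peg10 were named after their values were seen. Members and lists were chosen with earlier results of these data known. Tmem8c and Emr1 are the table's symbols for Mymk and Adgre1. Some genes under this rule are not reported here. Loci are from GENCODE M1 on mm9, where no member shares exon bases with another gene. Columns named H3mmT were read as the H3t line, the single line left without a column of its own name. Other data of the series were not analysed here.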

Additional observations from a re-analysis of the deposited data

Results flagged for a closer look

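Within each state, and for the change of each line, the 10 values of a member were searched for a single value far from the rest (Dixon's ratio, the gap to the nearest value divided by the whole range, on log2(FPKM + 1)). Of 27 groups searched, 10 held such a value. Chance gives about 1 in 20 where groups are independent and values normally distributed. These groups were not independent, since a change comes from the values of both states, so the count is a description only. Dag1 gave 3 of the 10 values, its 0 in growth in H3mm7 (ratio 0.821), its 0 in differentiated cells in H3.3 (0.774) and the resulting change of H3.3 (0.564). Sgce was low in the H3.2 line in growth (0.568, 4.96 FPKM) and in differentiated cells (0.677, 4.74 FPKM). Sgcd was low in the H3.1 line in both states (0.543 in growth, 1.22 FPKM, and 0.532 in differentiated cells, 2.24 FPKM). WT stood apart in growth for Utrn, as the lowest line (0.657, 11.95 FPKM), and for Sgcb, as the highest (0.544, 24.6 FPKM). Sntb1 in growth was highest in H3mm7 (0.489, 4.57 FPKM), the line with the highest growth level of Myog, 23.1 FPKM. No cause of these values was tested.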

How the results depend on the processing

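Dtna, Sgca, Sgcb, Sntb1 and Utrn were called higher in differentiated cells under all 19 alternatives run for each. The fit without WT is counted there as an alternative of its own and again among the leave-outs. The exact sign-flip test has an unadjusted p, which was counted as a call below 0.05. Sgce lost its call in 7 of 19 (6 leave-outs and no filter, adjusted p = 0.06). Sgcd was called in 3 of 19 (the block, without H3.1, and the exact sign-flip test, p = 0.002, the smallest that 10 lines can give) and Dag1 in 2 of 19 (zeros as missing, without H3.3). With the line as a block the call of no other member changed. The number of members called lay between 5 and 7, and it was 6 without WT. Leaving out 1 line at a time, all genes called between states numbered 5941 to 6759 (6419 with all lines).

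Counts between variant classes were unstable. In growth, 27 genes became 50 with a pseudocount of 0.1 FPKM, 16 once genes had to average 5 FPKM, and 2 to 28 with 1 line left out (2 without H3.1, 6 without H3mm16, 7 without H3t or H3mm13, 9 without H3.2, 11 without H3mm7, 13 without H3.3). In differentiated cells, 269 became 140 without the filter, 156 at an average of 5 FPKM, and 8 to 773 with 1 line left out (8 without H3.1, 27 without H3t, 48 without H3mm11, 65 without H3.3, 86 without H3mm13, 94 without H3mm16, 773 without H3.2). The interaction went from 0 to 5 genes without the filter and with quantile normalization, to 3 with the line as a block, to 1 at that average, and 0 to 2 with 1 line left out. Of the members, Sgca in growth passed only with the smaller pseudocount and Sntb1 in differentiated cells only without H3.2. With 1 line left out, class differences of members, none of them called, changed sign for Dag1 in growth (-0.91 to 0.22, above 0 without H3mm7 and, at 0.22, also with doubtful zeros as missing), Sgce in differentiated cells (-0.32 to 0.85, below 0 without H3.2), Utrn in differentiated cells (-0.16 to 0.11, above 0 without H3mm7 and, at 0.029, without H3.2) and Sgcb in growth (-0.0099 to 0.073, below 0 without H3mm12). Causes were not tested. No read counts were at hand, so for Dmd and other genes near 0 the limit set by depth is unknown.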

Other observations

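Sgce and Peg10, a paternally expressed gene derived from a retrotransposon, start 102 bases apart on opposite strands of chromosome 6 in mm9 (Peg10 at chr6:4697306-4710514, plus strand) and do not overlap. Peg10 was looked at after the low Sgce values of the H3.2 line had been seen. In differentiated cells Peg10 was also lowest in H3.2, at 1.45 FPKM against 4.06 to 11.4 FPKM in the other 9 lines. In growth it was 7.503 FPKM in H3.2, inside the range of 5.33 to 36.8 FPKM of the others, while Sgce was already lowest there. Between states the neighbours went opposite ways, Peg10 changing by -0.99 (SE 0.30, adjusted p = 0.0076) and being lower in 8 of 10 lines after differentiation, and Sgce by 0.57.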
